A study of Mus musculus with 4 samples.

Results

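The TRBJ1 cluster is the upstream group of joining segments of the mouse TCRβ locus, and clones were assigned to it when their best J hit was a TRBJ1 segment. Of 382531 TCRβ clones in 4 libraries, 106613 (27.9%) met this rule, and they held 492830 of 1798641 TCRβ reads (27.4%). The clones fell on 6 segments, with 30629 on TRBJ1-1, 18453 on TRBJ1-2, 17390 on TRBJ1-3, 21557 on TRBJ1-4, 8476 on TRBJ1-5 and 10108 on TRBJ1-6. The last of these meets the rule by its name and is described with the others. TRBJ1-7, the last segment of the cluster, had 0 clones, which allows at most 0.000821% of the reads of the smallest library. No clone had 2 J segments tied for the best hit.

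Total splenic CD4 T cells were sorted as TCRβ+ cells that bound no αGalCer tetramer (the stain for iNKT cells) and lacked CD25, taken at 25 days of age on average. The methods of the study name C57BL/6 mice beside the mutants, and the sample labels give no strain for the wild type (WT) mice. The Tet2/3 DKO mice carried Tet2-/- in the germline together with Tet3 flx/flx and CD4Cre, a Cre that deletes in thymocytes from the double positive stage on, after the TCRβ gene has been assembled. Each genotype was represented by 2 libraries, called WT 1, WT 2, DKO 1 and DKO 2 below, with 365421, 454098, 409444 and 569678 TCRβ reads in 81127, 100455, 96932 and 104017 clones. The TRBJ1 clones among them numbered 22529, 26934, 28222 and 28928. A clone is a distinct assembled sequence, and its count is the number of reads. Several clones of a library can share V, J and the amino acids of CDR3, so a clone is not always a different chain. No molecular identifiers were used, so that reads are PCR copies and intervals cover counting error only. The labelled CD4 T cell identity cannot be checked against marker genes, because the tables hold only TCR sequences.

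A TCRβ gene is assembled in developing thymocytes, first by joining a D segment to a J segment and then by joining a V segment to that product. TRBD1 lies just upstream of the TRBJ1 cluster and TRBC1 downstream of it, whereas TRBD2, the TRBJ2 cluster and TRBC2 lie farther downstream. Before joining, exonucleases can trim the segment ends, hairpin opening can leave short palindromic (P) bases, and terminal transferase can add N bases without a template. The J segment supplies the end of CDR3, the loop that contacts the peptide, and the whole of framework region 4.

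In GRCm38 (the build mm10), TRBJ1-1 lies at chr6:41533864-41533911, TRBJ1-2 at chr6:41534001-41534048, TRBJ1-3 at chr6:41534323-41534372, TRBJ1-4 at chr6:41534811-41534861, TRBJ1-5 at chr6:41535084-41535133 and TRBJ1-6 at chr6:41535554-41535606. TRBD1 lies at chr6:41533201-41533212 and TRBD2 at chr6:41542163-41542176. Counted from the end of TRBD1, 651 bases separate it from TRBJ1-1 and 2341 bases from TRBJ1-6. The germline J sequences were read from the alignments of the clones and are shown 5′ to 3′, because their lengths and ends set the trimming and CDR3 values given below. Capitals mark the bases that fall in CDR3, and lower case marks framework region 4.
TRBJ1-1: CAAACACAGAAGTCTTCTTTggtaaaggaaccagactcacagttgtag
TRBJ1-2: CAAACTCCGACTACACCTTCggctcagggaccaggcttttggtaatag
TRBJ1-3: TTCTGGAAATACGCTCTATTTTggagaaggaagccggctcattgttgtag
TRBJ1-4: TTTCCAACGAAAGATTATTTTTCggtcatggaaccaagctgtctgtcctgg
TRBJ1-5: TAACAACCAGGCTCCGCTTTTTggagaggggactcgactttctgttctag
TRBJ1-6: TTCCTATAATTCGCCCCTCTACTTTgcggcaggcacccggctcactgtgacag
The germline D segments, read in the same way, are given because which of them precedes TRBJ1 is 1 of the measurements.
TRBD1: gggacagggggc
TRBD2: gggactgggggggc
The CDR3 part was 20 bases in TRBJ1-1 and TRBJ1-2, 22 in TRBJ1-3 and TRBJ1-5, 23 in TRBJ1-4 and 25 in TRBJ1-6, and framework region 4 was 28 bases in all 6.

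Before any comparison, 1 library stood apart at a base of TRBJ1-5. Position 40 of this segment, counted from 1 at its 5′ end, lies in framework region 4, and both forms are shown with that base as the only capital of the lower case part.
TRBJ1-5 with C: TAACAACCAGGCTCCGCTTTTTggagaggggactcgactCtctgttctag
TRBJ1-5 with T: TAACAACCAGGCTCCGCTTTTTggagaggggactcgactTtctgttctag
The substitution C40T, written against the reference that MiXCR used, was carried by 1644 of 1646 TRBJ1-5 clones that covered the base in WT 1, by 2092 of 2092 in WT 2 and by 2138 of 2139 in DKO 1. In DKO 2 it was carried by 0 of 2563 clones, which allows a share of up to 0.117%, and 2562 of those clones had the C. The change turns the codon ctc into ctt, which codes for the same amino acid. The DKO group is therefore not uniform at this base, since DKO 1 carried the form of the WT libraries. Within the other TRBJ1 segments no substitution exceeded 0.945% of the clones of a segment in a library. The source of the difference, strain background included, was not tested. DKO 2 also had the most reads per TRBJ1 clone, 5.43 against 4.40, 4.40 and 4.19 in WT 1, WT 2 and DKO 1.

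The order of use did not follow the order along the chromosome. TRBJ1-1, the segment nearest to TRBD1, was the most used of the cluster, with 7.37% of TCRβ reads in WT 1, 7.06% in WT 2, 8.31% in DKO 1 and 8.56% in DKO 2. TRBJ1-4 took 5.50%, 5.28%, 5.96% and 4.87% of reads in the same order of libraries. TRBJ1-3 took 4.83%, 4.71%, 5.11% and 5.03%. These 3 segments and TRBJ1-2 formed the upper part of the range, far above the last pair. TRBJ1-2 took 5.06%, 4.50%, 4.74% and 4.36% of reads. TRBJ1-6, the most distant segment with clones, took 2.42%, 2.58%, 2.70% and 2.44%. TRBJ1-5, its neighbour, was the least used in every library, with 1.94%, 1.96%, 2.05% and 2.30% of reads. Counting error was small against the gap between TRBJ1-1 and the other segments: for TRBJ1-1 in WT 1 the 95% Wilson interval ran from 7.29% to 7.45%. Other steps were narrower. In DKO 2 the interval ran from 2.27% to 2.34% for TRBJ1-5 and from 2.40% to 2.48% for TRBJ1-6.

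**Figure D1:**
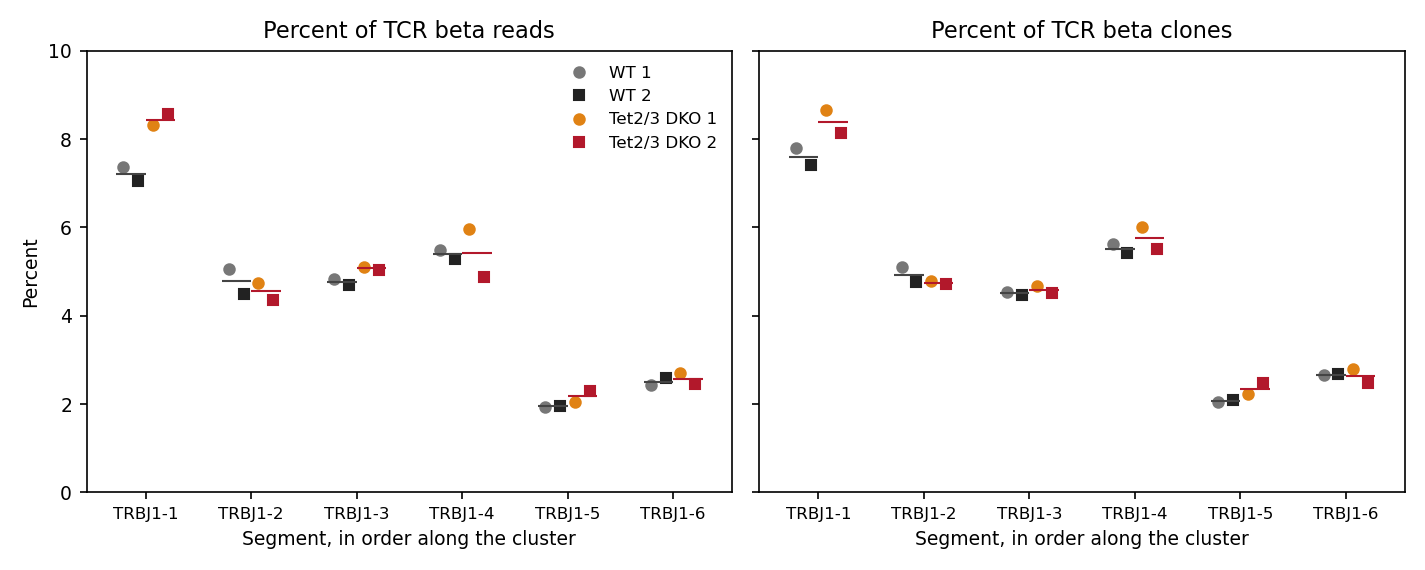
Percent of TCRβ reads (left) and of TCRβ clones (right) held by each TRBJ1 segment, with the segments in their order along the cluster and 1 point per library. TRBJ1-1 lies above the other segments in all 4 libraries, and TRBJ1-5 and TRBJ1-6 lie below 3%.

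Neighbours in this order were compared within libraries by exact two-sided sign-flip permutation tests, which over 4 libraries cannot give a p-value below 0.125. TRBJ1-1 exceeded TRBJ1-4 by 2.42 ± 0.883 percentage points of reads (SD, n = 4 libraries), in 4 of 4 libraries (exact p = 0.125, 0.208 after Benjamini-Hochberg adjustment over the 5 neighbour pairs). TRBJ1-2 exceeded TRBJ1-6 by 2.13 ± 0.346 points, also in 4 of 4 libraries (exact p = 0.125, adjusted 0.208). The adjacent steps in between did not hold by reads in every library, although TRBJ1-4 lay above TRBJ1-2 in 4 of 4. TRBJ1-4 exceeded TRBJ1-3 by 0.481 ± 0.445 points in 3 of 4 libraries (exact p = 0.25), and TRBJ1-3 exceeded TRBJ1-2 by 0.254 ± 0.375 points in 3 of 4 (exact p = 0.375). When each clone was counted once, TRBJ1-4 exceeded TRBJ1-3 by 1.09 ± 0.165 points in 4 of 4 libraries (exact p = 0.125, adjusted 0.156). TRBJ1-3 then lay below TRBJ1-2 by 0.291 ± 0.200 points in 4 of 4 libraries, so that the place of these 2 segments depended on whether reads or clones were counted. TRBJ1-6 exceeded TRBJ1-5 by 0.476 ± 0.238 points of reads in 4 of 4 libraries, but by clones only in 3 of 4, since the segments held nearly equal shares of the clones of DKO 2 (2.47% and 2.48%).

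The cluster as a whole took 27.1% and 26.1% of TCRβ reads in WT 1 and WT 2, and 28.9% and 27.6% in DKO 1 and DKO 2. The groups did not overlap, and the DKO mean of 28.2% ± 0.926 exceeded the WT mean of 26.6% ± 0.735 (SD, n = 2) by 1.62 percentage points (two-sided exact permutation test, p = 0.333, the smallest p that 2 against 2 libraries allow). By clones the shares were 27.8% and 26.8% in WT and 29.1% and 27.8% in DKO, a difference of 1.17 points. The difference by reads was 0.966 points without DKO 1 and 2.28 points without DKO 2. WT 1 and DKO 2 were nearly equal by clones.

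None of the 6 TRBJ1 segments passed the test for a genotype difference (edgeR quasi-likelihood test, adjusted p below 0.05 over all 12 TRBJ segments used, percent called 0). By reads, the largest fitted change was that of TRBJ1-1. This segment had a log2 fold change (DKO over WT) of 0.23 ± 0.0666 (SE) and an edgeR adjusted p of 0.226. It was the only segment of the 12 with an unadjusted p below 0.05 (8.33%), and it was called by DESeq2, with a log2 fold change of 0.20 and an adjusted p of 0.00396. Without DKO 2 the edgeR log2 fold change of TRBJ1-1 was 0.20 (edgeR adjusted p = 0.331). Over the alternatives its edgeR and DESeq2 adjusted p ranged from 0.00396 to 0.886. TRBJ1-5 had a log2 fold change of 0.16 ± 0.0857 (edgeR adjusted p = 0.688), which was 0.07 without DKO 2 (edgeR adjusted p = 0.343) and 0.24 without DKO 1 (edgeR adjusted p = 0.00243). TRBJ1-3 stood at 0.09 ± 0.0761, TRBJ1-6 at 0.04 ± 0.0884, TRBJ1-4 at 0.01 ± 0.119 and TRBJ1-2 at −0.07 ± 0.0995, with adjusted p from 0.688 to 0.955. By the share of reads, both DKO libraries lay above both WT libraries for TRBJ1-1, TRBJ1-3 and TRBJ1-5. That is 3 of 6 members, beside 25.0% of all 12 TRBJ segments. By clones this held for TRBJ1-1 and TRBJ1-5 only, again beside 25.0% of the 12. With each clone counted once, the log2 fold change was 0.14 for TRBJ1-1 (edgeR adjusted p = 0.116). That of TRBJ1-5 was then larger, at 0.18 (edgeR adjusted p = 0.334).

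The reads of large clones are part of these shares. Without the 10 most abundant clones of each library, the DKO minus WT difference of the cluster was 1.92 percentage points, beside 1.62 with them. The edgeR log2 fold changes were then 0.20 for TRBJ1-1, 0.19 for TRBJ1-5 and 0.09 for TRBJ1-3. The most abundant clone of TRBJ1-1 held 1.08%, 1.02% and 0.385% of the reads of the segment in WT 1, WT 2 and DKO 1, but 8.04% in DKO 2 (3923 reads). That of TRBJ1-5 held 2.58%, 0.777%, 1.18% and 7.83% (1028 reads in DKO 2). That of TRBJ1-3 held 4.85%, 2.22%, 2.58% and 5.35% (1534 reads in DKO 2). So DKO 2 had the highest value for all 3 segments, whereas WT 1 had the highest value for TRBJ1-2 (3.58%, 0.670%, 1.15% and 2.77%, with 663 reads in WT 1) and for TRBJ1-4 (1.49%, 1.19%, 0.467% and 1.21%, with 299 reads in WT 1). For TRBJ1-6 the values were 3.06%, 4.74%, 1.10% and 4.53%. For each segment, the CDR3 of the clone that held the largest share of the reads of that segment in its library is printed to show how the segment was cut, with the bases from J in capitals.
TRBV15 with TRBJ1-1, DKO 2: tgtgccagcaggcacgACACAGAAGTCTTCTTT
TRBV13-1 with TRBJ1-5, DKO 2: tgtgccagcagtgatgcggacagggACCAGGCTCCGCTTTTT
TRBV3 with TRBJ1-3, DKO 2: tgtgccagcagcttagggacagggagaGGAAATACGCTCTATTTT
TRBV12-2 with TRBJ1-2, WT 1: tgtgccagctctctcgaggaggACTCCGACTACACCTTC
TRBV12-2 with TRBJ1-4, WT 1: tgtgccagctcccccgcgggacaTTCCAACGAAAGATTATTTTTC
TRBV13-3 with TRBJ1-6, WT 2: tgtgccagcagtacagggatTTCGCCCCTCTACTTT
The J segments of these clones had lost 3, 5, 4, 3, 1 and 9 bases, in the order printed. The TRBV15 clone and the TRBV12-2 clone with TRBJ1-2 had no D hit, and the other 4 had TRBD1. For TRBJ1-2, TRBJ1-4 and TRBJ1-6 the clone with the most reads was another one, in DKO 2 (689, 335 and 630 reads).

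TRBV31, the V segment that lies downstream of the constant genes and joins by inversion, was among the 3 leading V partners of all 6 segments. It took 20.7% ± 0.891 of the reads of TRBJ1-2 (SD over 4 libraries), 16.9% ± 2.02 of TRBJ1-6, 16.3% ± 1.59 of TRBJ1-4, 14.2% of TRBJ1-5, 13.0% ± 2.53 of TRBJ1-3 and 12.2% ± 1.64 of TRBJ1-1. TRBV5 led for TRBJ1-1 (17.3% ± 3.47) and TRBJ1-5 (15.3% ± 1.29), and it took 15.6% of TRBJ1-4, 15.1% of TRBJ1-6 and 11.6% of TRBJ1-3. By the mean of the 4 libraries the third place went to TRBV15 for TRBJ1-1 (9.88% ± 5.44), to TRBV13-1 for TRBJ1-2 and TRBJ1-5, and to TRBV13-3 for TRBJ1-4 and TRBJ1-6. For TRBJ1-1 and TRBJ1-5 this place rested on DKO 2. Without that library TRBV13-3 was the third of TRBJ1-1 (9.97% ± 0.297), with TRBV15 at 7.17% ± 0.482. For TRBJ1-5, TRBV13-1 took 11.99%, 9.04%, 11.5% and 14.2% of reads in WT 1, WT 2, DKO 1 and DKO 2, a mean of 11.7% that was 10.8% ± 1.58 without DKO 2, against 10.99% ± 0.901 for TRBV13-3. TRBV13-3 also came second for TRBJ1-2 (9.88%) and TRBJ1-3 (11.7%).

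DKO 2 differed from the other 3 libraries in these profiles. TRBV15 took 7.72%, 6.81% and 6.97% of the TRBJ1-1 reads in WT 1, WT 2 and DKO 1, and 18.0% in DKO 2. In each of the first 3 libraries it lay below TRBV13-3 (10.1%, 10.1% and 9.62%) and TRBV13-1 (8.74%, 10.3% and 9.57%), so that this rank of TRBV15 rests on DKO 2. The largest TRBJ1-1 clone of DKO 2, with TRBV15, held 8.04% of the reads of the segment there. By clones TRBV15 was highest in DKO 2 as well, with 7.98%, 7.33%, 7.53% and 11.1%. TRBV5 took 18.9%, 19.6% and 18.5% of TRBJ1-1 reads in the same 3 libraries and 12.1% in DKO 2. In the whole cluster TRBV15 took 3.99%, 3.92%, 3.96% and 9.46% of reads. DKO 1 lay within the WT range for TRBV15 in the cluster, so that DKO 2 alone was high. The same library was the highest for TRBV15 in the TRBJ2 cluster, with 4.72%, 4.95%, 4.85% and 7.34% of reads.

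Of 131 TRBV-TRBJ1 pairs with enough reads, 0 passed the test for a genotype difference (edgeR quasi-likelihood test, adjusted over all 267 TRBV-TRBJ pairs, percent called 0), and 13 had an unadjusted p below 0.05 (9.92%, beside 9.36% of all pairs). TRBV12-2 with TRBJ1-5 had 78 and 50 reads in WT 1 and WT 2 and 169 and 572 reads in DKO 1 and DKO 2, a log2 fold change of 2.14 ± 0.564 (edgeR adjusted p = 0.259). TRBV16 with TRBJ1-1 had 921, 1161, 1608 and 2980 reads (log2 fold change 0.85 ± 0.252, edgeR adjusted p = 0.327). TRBV1 with TRBJ1-1 had 971, 1097, 1515 and 3147 reads (log2 fold change 0.86 ± 0.264, edgeR adjusted p = 0.327). Without DKO 2 the log2 fold changes of the 3 pairs were 1.36, 0.63 and 0.54 (edgeR adjusted p = 0.949), and without DKO 1 they were 2.64, 1.04 and 1.12 (edgeR adjusted p from 0.0265 to 0.0345). By clones TRBV12-2 with TRBJ1-5 had 23, 22, 21 and 75 clones, so that DKO 1 did not exceed WT, and its log2 fold change was 0.91 ± 0.556 (edgeR adjusted p = 0.610). By clones those of TRBV16 and TRBV1 with TRBJ1-1 were 0.62 ± 0.185 and 0.39 ± 0.142 (edgeR adjusted p = 0.566). The read counts of these 3 pairs were highest in DKO 2, the library with the most reads. As a share of TCRβ reads, TRBV1 with TRBJ1-1 held 0.266%, 0.242%, 0.370% and 0.552% in WT 1, WT 2, DKO 1 and DKO 2. TRBV12-2 with TRBJ1-5 held 0.0213%, 0.0110%, 0.0413% and 0.100%, so that DKO 2 was highest on this scale too. The 3 pairs lie outside the rule for named pairs and are named with their values known. The test without the 10 most abundant clones of each library called them. The fit with the replicate number as a block called TRBV12-2 with TRBJ1-5 as well, though the numbers do not pair the libraries.

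The share of each V segment that was joined to TRBJ1 was also compared. Among the 22 TRBV segments with at least 1000 reads, TRBV29 had the highest share of reads joined to TRBJ1 (31.6% ± 2.86), followed by TRBV2 (30.8% ± 5.05) and TRBV26 (30.5% ± 1.79). These 3 differed by less than their spread, and their order rested on DKO 2. TRBV2 had 25.8%, 31.1%, 28.8% and 37.7% in WT 1, WT 2, DKO 1 and DKO 2. Without DKO 2, TRBV26 came first (30.9% ± 1.95), TRBV29 second (30.7% ± 2.71) and TRBV2 in place 8 (28.6% ± 2.65). By clones, too, TRBV26 ranked above TRBV29, and TRBV2 was in place 4. TRBV1, the V segment farthest from the cluster, had 27.4% ± 1.60, and TRBV31, at the other end of the locus, had 28.5% ± 2.51. For TRBV31 the share of reads was 29.6% ± 1.17 without DKO 2. In DKO 2 it was 25.0%, below the cluster share of 27.6% of reads in that library. By clones TRBV31 had 30.7%, 28.9%, 30.9% and 31.1% in WT 1, WT 2, DKO 1 and DKO 2, above the cluster share of clones in 4 of 4 libraries, and TRBV1 had 28.6% ± 1.12. The lowest were TRBV14 (22.0% ± 1.98), TRBV30 (21.7% ± 4.16) and TRBV17 (16.1% ± 2.48). TRBV17 had 12.9%, 18.9%, 16.9% and 15.8% of reads joined to TRBJ1 in WT 1, WT 2, DKO 1 and DKO 2, and 16.2%, 15.1%, 17.1% and 18.2% of clones. By clones it was the lowest of the 22 in each of the 4 libraries. Among out-of-frame clones, 15.6% of 590 TRBV17 clones were joined to TRBJ1, and TRBV14 was lower there, with 15.03% of 459 clones. Both DKO libraries exceeded both WT libraries in this share of reads for 7 of the 22 TRBV segments (31.8%), and lay below them for 1 (4.55%).

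**Figure D2:**
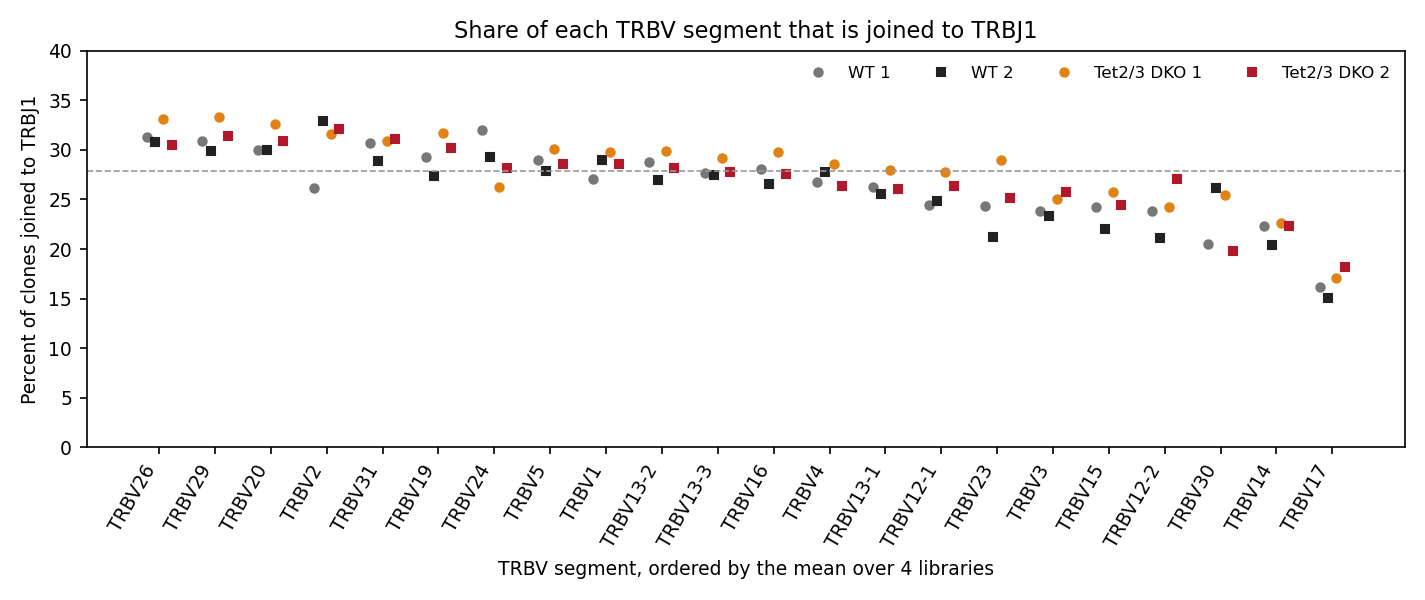
Percent of the clones of each TRBV segment that are joined to a TRBJ1 segment, with 1 point per library and the TRBV segments ordered by their mean. The dashed line is the mean share over all clones (27.9%), and TRBV17 lies lowest, at 15.1% to 18.2%.

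V profiles of segments were set side by side by the total variation distance, which is 0% for the same profile and 100% for profiles without a shared V segment. By reads, the closest TRBJ segment was TRBJ2-7 for TRBJ1-1 (11.3% ± 2.20), TRBJ2-1 for TRBJ1-2 (13.9% ± 1.59) and TRBJ1-3 (12.5% ± 5.19), TRBJ2-3 for TRBJ1-4 (8.08% ± 0.906), TRBJ2-5 for TRBJ1-5 (10.5% ± 3.63) and TRBJ1-4 for TRBJ1-6 (12.2% ± 1.27). The same segment in 2 different libraries lay at a mean distance of 11.6%, 8.78%, 14.2%, 9.56%, 11.1% and 16.0% for TRBJ1-1 to TRBJ1-6. By reads over all 4 libraries the closest segment was thus no farther away than the same segment in another library for all but TRBJ1-2, and this rested on DKO 2. Without DKO 2 the closest segments were the same, at 10.3%, 14.6%, 10.04%, 7.79%, 8.84% and 11.9% for TRBJ1-1 to TRBJ1-6, and each was farther away than the same segment in another library, at 4.21%, 8.50%, 9.89%, 5.60%, 8.71% and 9.68%. For TRBJ1-3 and TRBJ1-5 these distances were nearly equal. By clones the closest segment was the same for TRBJ1-4, TRBJ1-5 and TRBJ1-6 (6.61%, 7.96% and 10.3%), and was TRBJ2-2, TRBJ1-3 and TRBJ2-4 for TRBJ1-1, TRBJ1-2 and TRBJ1-3 (9.46%, 12.2% and 8.20%). The same segment in 2 libraries lay 7.50%, 4.87%, 7.26%, 6.81%, 8.88% and 8.27% apart by clones, so that on this scale the closest segment was farther away for TRBJ1-1, TRBJ1-2, TRBJ1-3 and TRBJ1-6. TRBJ1-1 and TRBJ1-2, which are adjacent on the chromosome, lay 22.8% apart by reads.

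TRBJ1 clones carried TRBD1 far more often than TRBJ2 clones did. Of the TRBJ1 reads with a D hit, 92.6%, 92.3%, 93.1% and 93.9% had TRBD1 as the best hit in WT 1, WT 2, DKO 1 and DKO 2, against 43.8%, 45.5%, 47.4% and 46.7% of TRBJ2 reads. The difference was 47.1 ± 1.29 percentage points, in 4 of 4 libraries (exact sign-flip permutation test, two-sided, p = 0.125, the smallest possible, and 0.139 adjusted over 20 comparisons of the clusters). The members varied little, from 91.7% in TRBJ1-3 to 93.0% in TRBJ1-1 and 94.1% in TRBJ1-5 as means over the libraries. In TRBJ1-1, TRBJ1-2 and TRBJ1-6 both DKO libraries exceeded both WT libraries, which is 3 of 6 members beside 50% of the 12 TRBJ segments.

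The remaining 7.03% of TRBJ1 reads with a D hit were assigned to TRBD2, which lies downstream of the cluster. The D segments printed above share their first bases and a run of g, and 12.9% of TRBJ1 clones with a D hit scored both equally, against 9.75% of TRBJ2 clones. Leaving these ties out gave a TRBD1 share of clones of 91.7% in TRBJ1 and 40.7% in TRBJ2. The TRBD1 share of TRBJ1 clones was 93.2% where 5 D bases were aligned, 89.9% at 7 bases, 96.1% at 10 and 98.5% at 12 or more. In TRBJ2 clones it went from 76.8% at 5 bases to 23.6% at 12 or more. The clusters thus lay farther apart at longer D matches. The aligned D part was 7.47 bases in TRBJ1 and 8.38 bases in TRBJ2 clones. D hits were also less frequent in TRBJ1, with 61.8%, 63.0%, 63.3% and 62.5% of reads against 74.4% of TRBJ2 reads on average, a difference of −11.7 ± 0.746 points in 4 of 4 libraries (exact p = 0.125, adjusted 0.139). TRBJ1-3 had the lowest share of reads with a D hit (57.3% ± 1.33) and TRBJ1-4 the highest (66.4% ± 1.81). Both DKO libraries exceeded both WT libraries in this share for TRBJ1-3, TRBJ1-4 and TRBJ1-5, beside 33.3% of the 12 TRBJ segments.

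The constant segment assigned by MiXCR did not separate the clusters, although TRBC1 follows TRBJ1 on the chromosome. TRBC1 and TRBC2 are near-identical copies. TRBC1 was the best C hit of 0.0434%, 0.0338%, 0.0643% and 0.0490% of the TRBJ1 reads with a C hit, and of 0.0349% of TRBJ2 reads on average. The difference of 0.0128 ± 0.0139 points (exact sign-flip permutation test, p = 0.125) turned to −0.00701 when the clones with equal scores for TRBC1 and TRBC2 were left out. Nearly all reads of both clusters were thus assigned to TRBC2, and the hits do not tell which constant gene was expressed.

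In-frame clones, with neither a frameshift nor a stop codon in CDR3, held 97.3%, 97.7%, 97.5% and 97.6% of the TRBJ1 reads with a covered CDR3. The DKO mean exceeded the WT mean by 0.01 percentage points (exact permutation test, p = 1), less than the spread between libraries. By clones the share was 96.6%, above the 96.0% of TRBJ2 clones by 0.547 ± 0.158 points in 4 of 4 libraries (exact sign-flip permutation test, p = 0.125, adjusted 0.139). By reads the clusters differed by 0.109 ± 0.166 points in 3 of 4 libraries (exact p = 0.375). Among the members the share of reads was highest in TRBJ1-3 (98.1% ± 0.247) and lowest in TRBJ1-5 (96.5% ± 0.912). TRBJ1-2 had 97.2%, 97.6% and 97.0% in WT 1, WT 2 and DKO 1 and 95.3% in DKO 2, where its out-of-frame clones held 6.08 reads each, against 3.13 to 3.40 in the other libraries. In TRBJ1-1 both DKO libraries lay above both WT libraries (97.7% and 98.0% in WT, 98.1% and 98.0% in DKO). WT 2 and DKO 2 were equal there to the digits printed, so that the groups were barely apart. In TRBJ1-2 both DKO libraries lay below both WT libraries. These stand beside 8.33% of the 12 TRBJ segments in either direction. Reads without a covered CDR3 made up 1.10%, 1.02%, 0.736% and 0.753% of TRBJ1 reads. Their share was lower in both DKO libraries than in both WT libraries for TRBJ1-1 to TRBJ1-4, which is 4 of 6 members beside 75.0% of the 12 TRBJ segments.

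Use of the segments differed between in-frame and out-of-frame clones. TRBJ1 held 26.3%, 23.5%, 25.7% and 25.0% of out-of-frame clones in WT 1, WT 2, DKO 1 and DKO 2, and 27.8%, 26.9%, 29.3% and 28.0% of in-frame clones. The difference was −2.85 ± 0.949 percentage points, in 4 of 4 libraries (exact sign-flip permutation test, two-sided, p = 0.125, adjusted 0.146 over 7 comparisons). It rested on 789, 787, 888 and 912 out-of-frame TRBJ1 clones. By reads the difference was −0.654 points (exact p = 0.5), and over clones of at least 2 reads it was −1.44 points (exact p = 0.25).

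The members did not move together. TRBJ1-1 made up 5.81% of out-of-frame and 8.09% of in-frame clones (−2.28 ± 0.639 points), and was lower among the former in 4 of 4 libraries. TRBJ1-3 (3.64% and 4.59%) and TRBJ1-4 (4.82% and 5.68%) were also lower among out-of-frame clones in 4 of 4 libraries. TRBJ1-5 (2.80% and 2.18%) and TRBJ1-6 (3.23% and 2.63%) were higher among them in 4 of 4 libraries. For each of these 5 the exact p was 0.125 and the adjusted value 0.146. TRBJ1-2 went down in both WT libraries and up in both DKO libraries, with a mean difference of 0.03 ± 0.407 points (exact p = 0.875). Among out-of-frame clones, TRBJ1-1 and TRBJ1-2 lay close together (5.81% ± 0.244 and 4.84% ± 0.353), whereas among in-frame clones they lay farther apart (8.09% ± 0.544 and 4.82% ± 0.188). In their share of out-of-frame clones, both DKO libraries exceeded both WT libraries for TRBJ1-2 and TRBJ1-5, which is 2 of 6 members beside 25.0% of the 12 TRBJ segments.

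**Figure D3:**
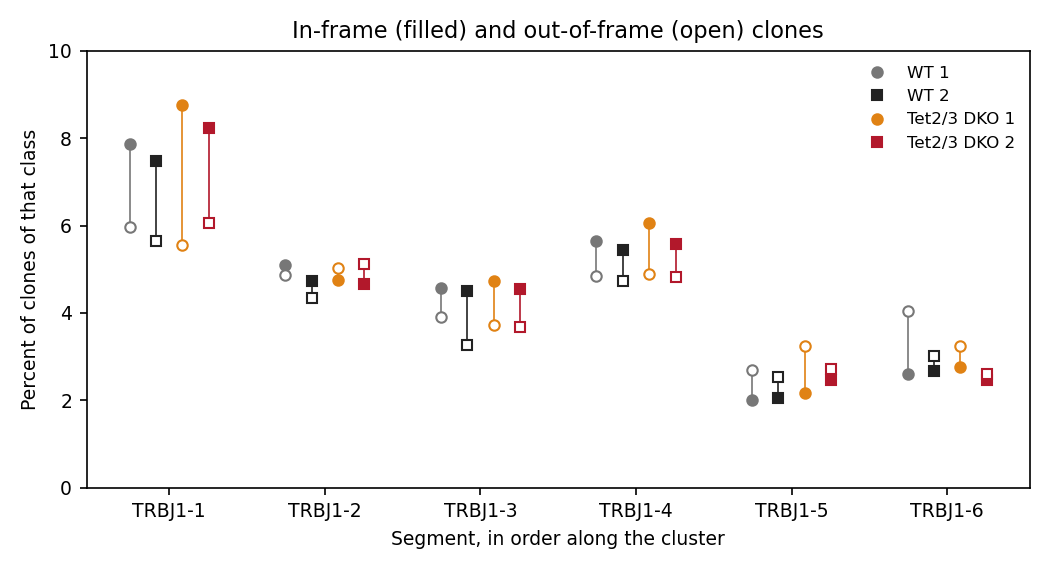
Percent of in-frame clones (filled) and of out-of-frame clones (open) that use each TRBJ1 segment, with the values of 1 library joined by a line. TRBJ1-1 is lower among out-of-frame clones in all 4 libraries (5.81% against 8.09% on average), whereas TRBJ1-5 and TRBJ1-6 are higher.

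The bases missing from the 5′ end of J were counted for in-frame clones, each clone once. TRBJ1-3 lost the fewest, 1.48, 1.45, 1.41 and 1.64 bases in WT 1, WT 2, DKO 1 and DKO 2. TRBJ1-2 lost 1.79 ± 0.0494 bases, TRBJ1-1 2.59 ± 0.0814, TRBJ1-5 2.84 ± 0.167 and TRBJ1-4 3.13 ± 0.0345 (SD, n = 4 libraries). TRBJ1-6, the segment with the longest CDR3 part, lost the most, with 4.23, 4.41, 4.33 and 4.27 bases. Each step of this order had the same direction in 4 of 4 libraries (exact sign-flip permutation tests, p = 0.125, also 0.125 after adjustment over the 5 steps), from 0.252 ± 0.106 bases between TRBJ1-1 and TRBJ1-5 to 1.19 ± 0.0792 bases between TRBJ1-4 and TRBJ1-6. The cluster lost 2.56 bases and TRBJ2 2.87, a difference of −0.31 ± 0.0318 in 4 of 4 libraries (exact p = 0.125, adjusted 0.139). In 0 of 6 members did the genotypes separate, beside 0% of the 12 segments higher and 16.7% lower in DKO. A base that J shares with D, or that an N addition restored by chance, is counted as J, so that trimming is a lower estimate.

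The pattern of trimming differed from member to member. TRBJ1-3 was untrimmed in 51.4% ± 2.53 of in-frame clones, and clones that had lost 4 bases made up 12.9% but those that had lost 5 bases 0.988%. In the printed sequence of TRBJ1-3, a loss of 4 bases ends before GGAAATACGCTCTATTTT. TRBJ1-2 was untrimmed in 38.2%, TRBJ1-1 in 27.9%, TRBJ1-4 in 25.9%, TRBJ1-5 in 24.2% and TRBJ1-6 in 18.7% of clones. In TRBJ1-6 a loss of 7 bases, in 19.0% ± 0.582 of clones, was about as frequent as an untrimmed J and the more frequent of both in 2 of 4 libraries, and TRBJ1-4 also had a peak at 7 bases, in 11.2% ± 0.430. A loss of 8 bases was seen in 5.26% of TRBJ1-6 and 1.22% of TRBJ1-4 clones. The cluster was untrimmed in 31.9% of clones and TRBJ2 in 26.6%, a difference of 5.36 ± 0.480 points in 4 of 4 libraries (exact p = 0.125, adjusted 0.139).

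**Figure D4:**
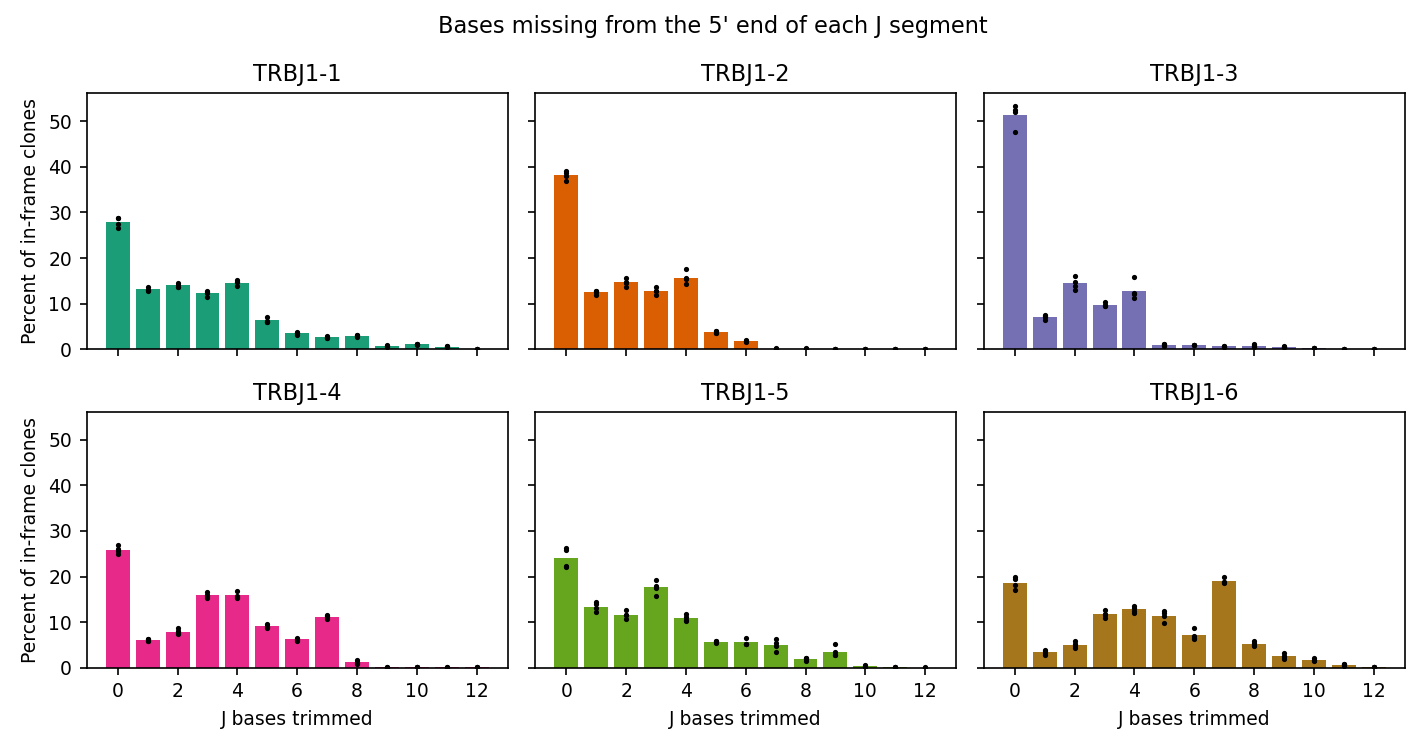
Percent of in-frame clones by the number of bases missing from the 5′ end of J, with 1 panel per TRBJ1 segment. TRBJ1-3 peaks at 0 bases (51.4%) and drops after 4 bases, whereas TRBJ1-4 and TRBJ1-6 have a peak at 7 bases (11.2% and 19.0%).

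Bases marked before an intact J, as P addition would leave them, were counted in in-frame clones. They were found in 29.6% of TRBJ1-3 clones, 23.0% of TRBJ1-2, 17.4% of TRBJ1-5, 17.1% of TRBJ1-1, 13.6% of TRBJ1-4 and 9.94% of TRBJ1-6. These clones are by definition part of the untrimmed ones. The palindrome was checked over all clones with such bases, whatever their frame. An exact palindrome of the J end was present in 98.8% of them in TRBJ1-1, 97.8% in TRBJ1-5 and 97.4% in TRBJ1-2. The share was 85.3% in TRBJ1-3, 79.3% in TRBJ1-6 and 75.7% in TRBJ1-4. Clones with only 1 such base made up 71.6%, 60.7%, 74.7%, 35.0%, 25.7% and 38.8% of them in the same order. The palindrome shares are therefore not comparable between segments.

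Over in-frame clones, each counted once, mean CDR3 length rose from TRBJ1-1 (13.18 ± 0.0670 amino acids) through TRBJ1-2 (13.32 ± 0.0441) and TRBJ1-5 (13.58 ± 0.0594) to TRBJ1-4 (13.99 ± 0.0363), TRBJ1-3 (14.01 ± 0.0678) and TRBJ1-6 (14.07 ± 0.0706; SD, n = 4 libraries). The first 3 steps had the same direction in 4 of 4 libraries, with differences of 0.135, 0.266 and 0.411 amino acids (exact sign-flip permutation tests, p = 0.125, adjusted 0.208). The last 3 segments could not be ordered, as TRBJ1-3 exceeded TRBJ1-4 in 2 of 4 libraries (exact p = 0.75) and TRBJ1-6 exceeded TRBJ1-3 in 3 of 4 (exact p = 0.25).

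A CDR3 of 13 amino acids was the most frequent in TRBJ1-1 (33.3% of in-frame clones) and TRBJ1-2 (36.0%), whose CDR3 part is 20 bases. A CDR3 of 14 amino acids was the most frequent in TRBJ1-3 (40.3%), TRBJ1-4 (32.9%) and TRBJ1-6 (31.1%). TRBJ1-5 had nearly equal shares at 13 (28.4%) and 14 (28.5%). TRBJ1-4 and TRBJ1-3 had nearly the same mean length by different routes. The J part of CDR3, which here includes any bases marked before an intact J, was 20.2 bases in TRBJ1-4 and 21.2 in TRBJ1-3. The remaining part was 21.8 and 20.8 bases. TRBJ1-6 has 3 more germline CDR3 bases than TRBJ1-3, but its J part, counted in the same way, was 20.9 bases.

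**Figure D5:**
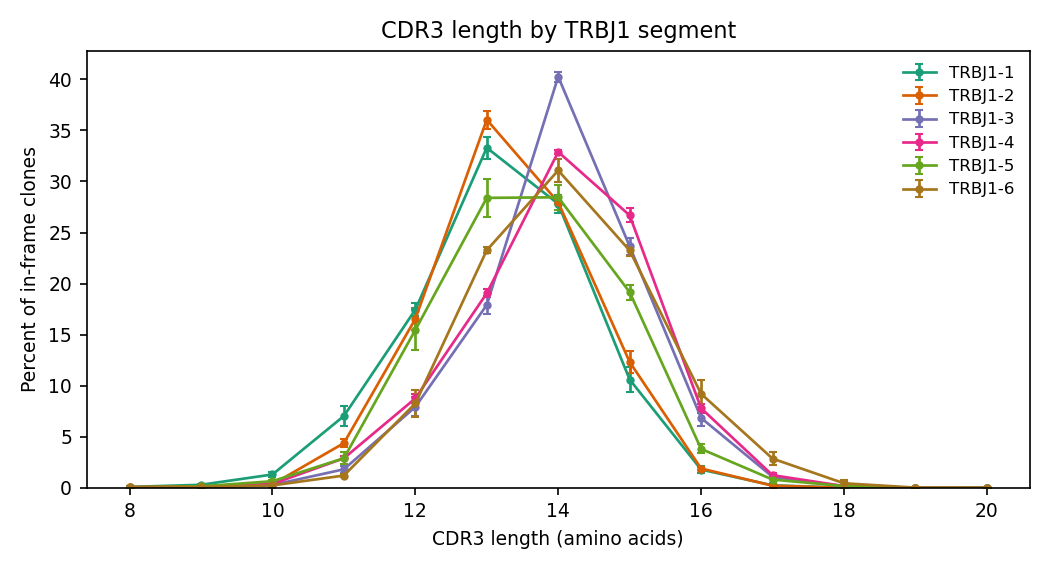
Percent of in-frame clones by CDR3 length in amino acids, with 1 line per TRBJ1 segment and bars for the SD over 4 libraries. TRBJ1-1 and TRBJ1-2 peak at 13 amino acids, and TRBJ1-3, TRBJ1-4 and TRBJ1-6 peak at 14.

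CDR3 was shorter in TRBJ1 than in TRBJ2 clones by 0.12 ± 0.0252 amino acids (13.62 and 13.74), in 4 of 4 libraries (exact sign-flip permutation test, p = 0.125, adjusted 0.139). The J part, counted as above, was longer in TRBJ1, by 1.12 ± 0.0276 bases (19.3 and 18.2), and the rest of CDR3 was shorter by 1.48 ± 0.0609 bases (21.5 and 23.0). Lengths also varied less in TRBJ1, with an SD over clones of 1.29 amino acids against 1.40. Out-of-frame CDR3s of the cluster were longer than in-frame ones by 0.833 ± 0.212 bases (41.7 and 40.9), in 4 of 4 libraries for the cluster and for all 6 members (exact p = 0.125, also 0.125 adjusted over 7 comparisons).

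Weighted by reads, the mean CDR3 length of the cluster was 13.60 and 13.58 amino acids in WT 1 and WT 2 and 13.65 and 13.42 in DKO 1 and DKO 2. The DKO mean was lower by 0.06 (exact permutation test, p = 1), and higher by 0.06 without DKO 2. In TRBJ1-1 the lengths were 13.14, 13.15, 13.22 and 12.89, and the largest TRBJ1-1 clone of DKO 2 had a CDR3 of 11 amino acids. TRBJ1-5 was the only member in which the genotypes separated, at 13.49 and 13.53 in WT and 13.64 and 13.54 in DKO, beside 8.33% of the 12 TRBJ segments. By clones its DKO libraries lay on either side of the WT libraries (13.56, 13.58, 13.66 and 13.53).

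Bases between the aligned D part and the J part were counted in in-frame clones with a D hit. TRBJ1 clones had 1.13, 1.13, 1.10 and 0.955 such bases in WT 1, WT 2, DKO 1 and DKO 2. This count can include D bases that were not aligned, and it misses N bases that matched D or J. DKO lay below WT by 0.10 bases (exact permutation test, p = 0.333), by 0.03 without DKO 2 and by 0.17 without DKO 1. The DKO minus WT difference was −0.060 bases where the D score was above the library median (exact permutation test, p = 0.667). Weighted by reads it was −0.098 bases (exact permutation test, p = 0.667). In TRBJ1-1, TRBJ1-2 and TRBJ1-3 both DKO libraries lay below both WT libraries, which is 3 of 6 members beside 50% of the 12 TRBJ segments. Among the members TRBJ1-3 had the fewest such bases (0.923 ± 0.0734) and TRBJ1-4 the most (1.17 ± 0.0806). Over a family of 63 genotype comparisons of other TRBJ1 values by the exact permutation test, the smallest Benjamini-Hochberg adjusted p was 1. The bases between D and J and the reads without a covered CDR3 were not part of that family.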

How the data were processed

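TCRβ repertoires of sorted splenic CD4 T cells were read by 5′ RACE (SMARTer mouse TCR kit, 20 ng RNA, MiSeq). The authors demultiplexed with bcl2fastq 2.20.0 (per the labels), used fastp 0.21.0 for trimming and MiXCR 4.7.0 for clone assembly. The count of reads per clone, its V, D, J and C hits, the alignments and the CDR3 were used as the authors deposited them. The fraction that the authors deposited beside each count only repeats it and was not used. Hits were reduced to the best one, without its allele.

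Segments (at least 10 reads) and V-J pairs (at least 50 reads) were tested on counts by edgeR 4.0.16 in R 4.3.3 (quasi-likelihood test), scaled by total TCRβ reads, with Benjamini-Hochberg adjustment over all segments or pairs and a threshold of 0.05. DESeq2 1.42.0 was an alternative. The test was checked on simulated data (20 draws, dispersion 0.01). Of 12 segments, 2 were changed 2-fold and 100% of these were called, with 4.0% false calls. Of 267 pairs, 40 were changed 2-fold and 100% of these were called, with 0.815% false calls. Smaller changes, such as the log2 fold change of 0.23 of TRBJ1-1, and other dispersions were not simulated. The draws therefore do not show whether changes of that size, or at a wider spread, would be called. Single values were compared by exact permutation tests between genotypes, or by sign flips within libraries. The study calls the libraries distinct biological replicates, and the p-values measure the spread between them. Python 3.11.15, NumPy 2.4.6, pandas 2.3.3 and SciPy 1.17.1 were used.

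Coordinates are those of RefSeq for GRCm38, and all 24 TRBV and 12 TRBJ segments seen were found there. Clones without a covered CDR3 (0.736% to 1.10% of TRBJ1 reads) stayed in usage and were left out where CDR3 is needed. Bases around D were measured in in-frame clones with a D hit.

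The members, the lists and the tests were chosen with earlier results of these data known. The text names all TRBJ1 segments, for each the 3 leading TRBV partners, the share of its most abundant clone in each library (with the sequence of 1 clone per segment) and the closest V profile, the 3 TRBV segments with the largest and the 3 with the smallest TRBJ1 share, TRBV1, TRBV31, and pairs past the threshold. The alternatives covered normalization, filters, clone size, merging of clones, ties, frame, depth, the replicate number as a block, and each library left out in turn. Those for the bases between D and J were chosen after seeing the data.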

Additional observations from a re-analysis of the deposited data

How the results depend on the processing

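The DKO minus WT difference of the TRBJ1 cluster share kept its direction under all 12 alternatives, between 0.966 (without DKO 1) and 2.28 percentage points (without DKO 2). Of these, the replicate block and the removal of tied J hits could not change it, since the design is balanced and there were 0 ties. The numbers of the libraries did not pair them (correlation of same-numbered deviations −0.0406 over segments and −0.067 over pairs), and the difference with the replicate block is 1.62 by construction. The count of TRBJ1 segments called was 0, and 1 with DESeq2 (TRBJ1-1). It was 0 to 1 with 1 library left out (TRBJ1-5 without DKO 1). The count of TRBJ1 pairs called was 0, 3 without the 10 most abundant clones, 1 with the replicate block (TRBV12-2 with TRBJ1-5), and 0 to 11 with 1 library left out. It was 11 without DKO 1 and 2 without WT 2. In those fits the lone library is assumed to vary like the other group. The in-frame difference of 0.01 points reversed to −0.0104 without the 10 most abundant clones and ranged from −0.149 to 0.169 with 1 library left out. The CDR3 length difference of −0.06 ranged from −0.17 to 0.059. The TRBC1 difference reversed to −0.00701 without ties. The log2 fold change of TRBJ1-4 was −0.0081 with TMM factors and −0.018 with DESeq2, and ranged from −0.15 to 0.15 with 1 library left out. That of TRBJ1-2 ranged from −0.15 to 0.017, and that of TRBJ1-6 from −0.035 to 0.11, with −0.021 when each clone was counted once. The causes were not tested. TRBD1 use, J trimming and the out-of-frame share kept their direction under all alternatives run, with 46.1 to 64.5 points, −0.387 to −0.299 bases and −3.31 to −0.654 points. With 2 libraries per genotype, no exact test could pass 0.05.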

Other observations

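A chain was counted as shared when libraries agreed in its V, its J and the amino acids of its CDR3. Of 70084 different in-frame TRBJ1 chains, 621 (0.886%) were found in all 4 libraries, against 2066 of 171543 TRBJ2 chains (1.20%). The share was 1.17% in TRBJ1-1, 1.13% in TRBJ1-2, 1.07% in TRBJ1-3, 0.621% in TRBJ1-6 and 0.577% in TRBJ1-4. In TRBJ1-5, 13 of 6135 chains were shared (0.212%), the lowest value of the 6. TRBJ1-5 also has the fewest chains, and depth was not equalised between segments.

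Among the chains in all 4 libraries, the one with the most nucleotide forms was a TRBV31 chain for each segment from TRBJ1-2 to TRBJ1-6, and a TRBV5 chain for TRBJ1-1. For TRBJ1-2 it had 15 nucleotide forms and 34, 27, 29 and 81 reads in WT 1, WT 2, DKO 1 and DKO 2. For TRBJ1-3 it had 11 forms and 97 reads in all, and for TRBJ1-4 it had 12 forms and 176 reads in all. The leading nucleotide form of each of these 3 chains was itself found in all 4 libraries. It is printed with the J part in capitals, which includes any base marked before an intact J. The first capital A of the TRBJ1-4 chain is such a base, and it is the complement of the first T of TRBJ1-4.
TRBV31 with TRBJ1-2: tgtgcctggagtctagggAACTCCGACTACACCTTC
TRBV31 with TRBJ1-3: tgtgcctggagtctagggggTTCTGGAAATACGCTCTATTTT
TRBV31 with TRBJ1-4: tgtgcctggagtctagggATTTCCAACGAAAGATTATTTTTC
The 3 sequences begin with the same run of bases, and the TRBJ1-3 chain has additional g bases between that run and its J part.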
